A study of Mus musculus with 9 samples.

Results

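The 10 genes described here encode transcription factors and 1 further nuclear protein of the immediate early response: the NR4A nuclear receptors Nr4a1 and Nr4a3, the EGR zinc finger factors Egr1, Egr2 and Egr3, the AP-1 subunits Fos, Fosb, Jun and Junb, and Ier2. They were chosen as members of named families, with earlier results of these data known. Other members of these families, such as Nr4a2, Egr4, Fosl1, Fosl2 and Jund, were left out and are counted in a later list. Every probe set whose single gene symbol in the platform table is 1 of the 10 was taken. This gave 15 of the 45101 probe sets on the array and 10 of its 18193 gene symbols. Nr4a3 has 3 probe sets, Egr2, Egr3 and Jun have 2 each, and the other genes have 1.

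The study measured total RNA of mouse thymus on the Affymetrix Mouse430_2 array, in thymus tumor, in thymus tumor labelled as resistant to XIST (a long noncoding RNA known for silencing the X chromosome), and in normal thymus. Each group has 3 arrays. No strain, genotype, age or transgene is given for any group in the sources used here, nor how the tumors arose or how resistance was defined. Whether the 3 arrays of a group come from different animals is not stated, so the p-values rest on a spread between arrays that could be technical.

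Immediate early genes are transcribed within minutes of a stimulus from factors already present in the cell, without new protein synthesis, and their products switch on later genes. Fos and Jun proteins pair into the AP-1 dimer, EGR factors bind GC-rich sites in promoters, and NR4A proteins are nuclear receptors that act without a known physiological ligand. In thymocytes the T cell receptor induces all 3 families through the MAP kinase and calcium pathways, and Nr4a1 is widely used as a readout of receptor signalling during selection.

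The deposited values are MAS5 signals on an arbitrary scale, and changes are log2 differences of signals floored at 1. Array medians were 13.9 to 25.8. Control RNAs with poly-A tails, which are added to a sample before labelling, gave signal on 5 arrays (tumor 2 and 3, resistant tumor 3, normal thymus 2 and 3) and almost none on the other 4. The median signal was 23.6 to 25.8 where this spike-in signal was missing and 13.9 to 17.8 where it was present, so dim probe sets read higher on the 4 arrays without it. The ratio of the Actb 3' to 5' control probe sets, a sign of RNA integrity, was 1.63 to 3.16 and highest in tumor 2. No detection calls were used, so where a probe set was below the median of each of a group's 3 arrays it is given a bound there ("at least N-fold"). This bound puts the array medians in place of the dim signals. It takes no account of the spread between arrays, so the true change can be smaller than the bound. With 3 arrays a group, precision is limited throughout. In whole tissue, fewer cells of a type and less RNA per cell cannot be told apart.

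Promoter sequences are shown for Nr4a1, Nr4a3 and Fos, because the motifs of their upstream windows can then be set beside their signals. Nr4a1, and Nr4a3 by 1 probe set, were lower in both tumor groups, and Fos was not. Each line holds the 250 bases upstream of the RefSeq transcription start, from the RefSeq promoter table of build GRCm38.p6, written 5' to 3'. Nr4a1 is read from the plus strand at chr15:101266596-101266845, Nr4a3 from the plus strand at chr4:48045055-48045304 and Fos from the plus strand at chr12:85473640-85473889. Capitals mark TGACG or its reverse complement CGTCA, the core site of the cyclic AMP response element (CRE) bound by CREB and ATF factors, and in Nr4a1 also 1 EGR site, GCGNGGGCG, which lies there as CGCCCCCGC.
Nr4a1: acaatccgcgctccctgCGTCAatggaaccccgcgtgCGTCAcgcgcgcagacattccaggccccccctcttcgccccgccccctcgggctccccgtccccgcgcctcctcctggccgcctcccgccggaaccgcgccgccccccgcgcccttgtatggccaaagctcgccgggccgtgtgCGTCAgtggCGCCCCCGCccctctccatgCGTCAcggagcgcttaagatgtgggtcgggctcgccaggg
Nr4a3: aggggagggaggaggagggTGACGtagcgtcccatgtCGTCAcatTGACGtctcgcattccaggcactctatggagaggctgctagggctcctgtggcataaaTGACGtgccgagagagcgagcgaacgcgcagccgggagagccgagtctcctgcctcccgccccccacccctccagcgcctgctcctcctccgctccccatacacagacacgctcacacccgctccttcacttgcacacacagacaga
Fos: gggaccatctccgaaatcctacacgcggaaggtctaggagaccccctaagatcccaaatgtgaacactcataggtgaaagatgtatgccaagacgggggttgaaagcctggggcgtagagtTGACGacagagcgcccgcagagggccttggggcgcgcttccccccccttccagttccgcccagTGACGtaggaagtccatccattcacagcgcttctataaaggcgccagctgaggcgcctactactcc

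Windows of 7 of the 10 genes were used. Egr1, Egr3 and Ier2 are named only, because each either had no entry in the table or lay on a chromosome that was left out. Both strands of the 7 windows were searched. The core site occurred 4 times in Nr4a1, 4 times in Nr4a3, 2 times in Fos and 1 time each in Fosb and Junb, and not in the windows of Egr2 and Jun. Of 32851 promoter windows of this length, 17.8% held at least 1 core site and 0.137% held at least 4. EGR sites were found in Nr4a1 and Fosb, 1 each, against 4.7% of all windows. The full CRE (TGACGTCA, which contains the core site), the AP-1 site (TGANTCA), the NR4A monomer site (AAAGGTCA) and the CArG box bound by SRF were not found in these 7 windows, and 1.55%, 6.75%, 1.34% and 1.47% of all windows held them. These matches describe the letters of the windows only, so a site further upstream or with other letters would not be found.

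Nr4a1, Egr1, Egr2, Junb and 1 probe set each of Nr4a3 and Egr3 were lower in thymus tumors than in normal thymus, while Fos was higher in all 3 tumor arrays and passed the test in 1 of 2 fits. Jun and Ier2 did not pass it. In a limma fit over all 45037 probe sets other than controls, without a filter, 7 of the 15 probe sets were lower and 0 were higher at an adjusted p under 0.05, where 9.32% of all probe sets were called lower and 9.19% higher. At an unadjusted p under 0.05, 9 of the 15 passed, and 29% of all probe sets did. Tumor and normal arrays did not overlap in 9 of the 15, against 33.2% of all probe sets. The median change of the 15 was -0.41, beside -0.04 over all probe sets. Without normal thymus 2 the count was 4 lower, and without normal thymus 3 it was also 4, because Nr4a3, Junb and the second Egr2 probe set then missed the threshold, with limma adjusted p-values of 0.0501 to 0.0902.

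**Figure D1:**
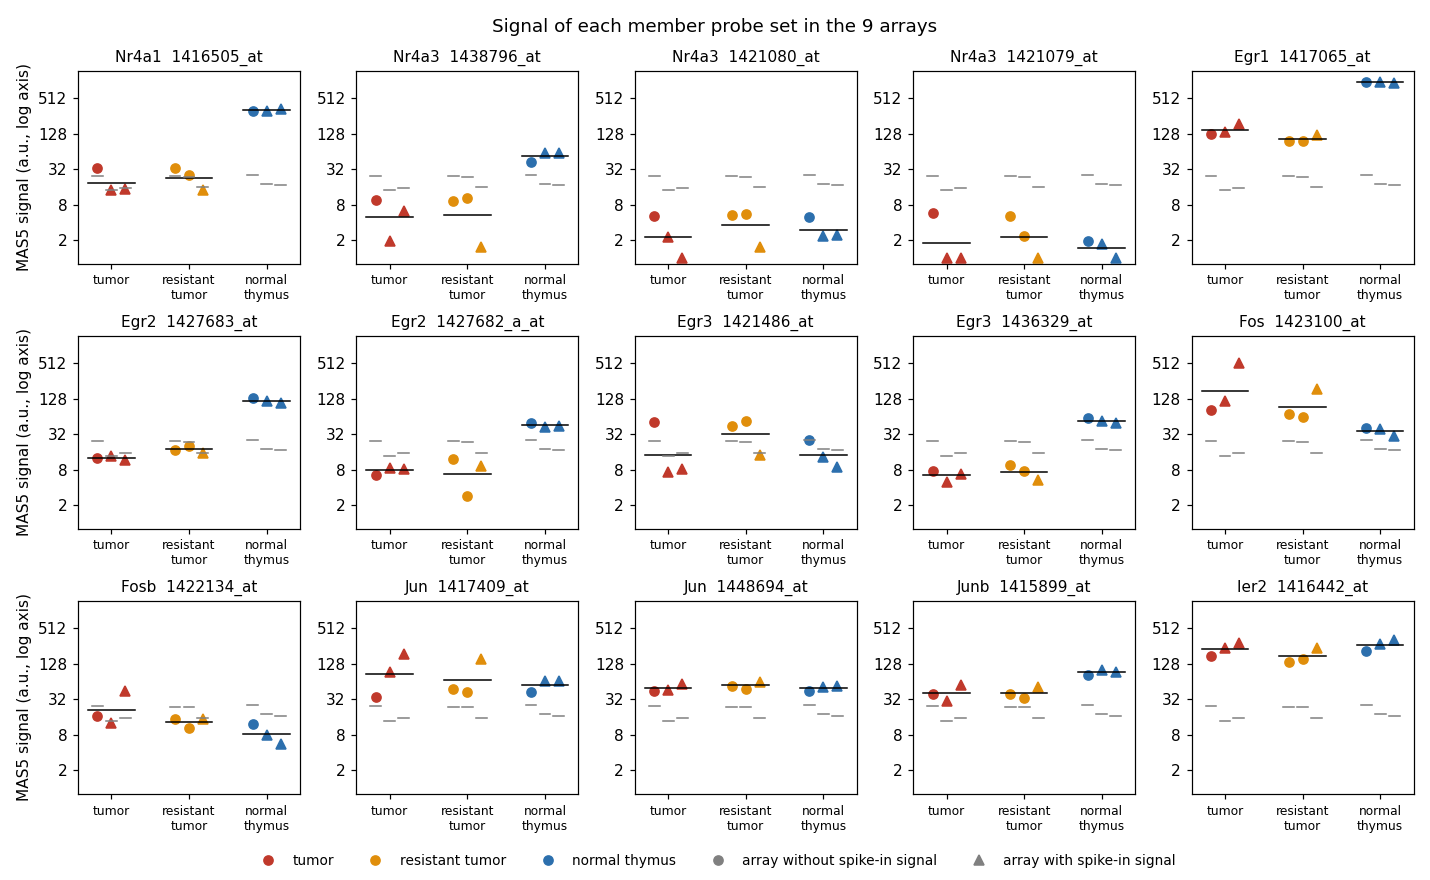
MAS5 signal (log axis) of each of the 15 probe sets in tumor, resistant tumor and normal thymus, 3 arrays each. Circles are arrays without and triangles arrays with spike-in signal, black bars are means of the log2 signals and grey ticks the array medians. Nr4a1, Egr1, Egr2 and 1 probe set each of Nr4a3 and Egr3 sit far below normal thymus in both tumor groups, and Fos sits above it.

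Nr4a1, which encodes the nuclear receptor NUR77, had signals of 33.6, 13.9 and 14.4 in tumors, against 306, 312 and 339 in normal thymus. Every tumor array lay far under every normal array. The change was -4.08 ± 0.41 in log2 units (SE, 3 arrays in each group, limma adjusted p = 0.000344), that is 16.9-fold lower in tumors. Tumor 2 and tumor 3 were under their array medians, so the size of this fold rests partly on dim signals. Under other ways of processing, with 1 probe set per gene, the change ran from -4.52 to -2.40. Tumor 1, an array without spike-in signal, carried the highest tumor value, and the change was -3.19 within the arrays without spike-in signal and -4.52 within those with it.

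Nr4a3 encodes the NOR1 receptor, a close relative of NUR77. Its probe set 1438796_at read 9.70, 1.96 and 6.11 in tumors and 41.5, 60.6 and 60.3 in normal thymus. All tumor arrays were under the array median, so the gene was at least 3.06-fold lower in tumors (fitted change -3.45 ± 0.86, limma adjusted p = 0.0258). The call did not survive the removal of tumor 2, tumor 3 or any 1 normal array, with limma adjusted p-values of 0.0586 to 0.0902, although the sign stayed negative. The other Nr4a3 probe sets, 1421080_at and 1421079_at, lay under the array median on all 9 arrays, at 0.179 to 5.85, and give no fold.

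Egr1 encodes a zinc finger factor induced by growth factors and receptors, and its change had the smallest standard error of the 15 probe sets. Tumor signals were 125, 135 and 190, against 967, 967 and 910 in normal thymus. Egr1 fell by 2.68 ± 0.17 on the log2 scale, or 6.43-fold (limma adjusted p = 4.329e-05). It stayed well above the array median on all 3 tumor arrays.

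Egr2 and Egr3 encode factors that act with EGR1 downstream of the T cell receptor and, in peripheral T cells, take part in anergy. Egr2 probe set 1427683_at gave 12.6, 13.5 and 11.9 in tumors and 131, 119 and 109 in normal thymus. Since the tumor values were under the array medians, Egr2 was at least 6.83-fold lower in tumors (fitted change -3.24 ± 0.20, limma adjusted p = 3.853e-05). The second Egr2 probe set, 1427682_a_at, had 6.60, 8.70 and 8.20 in tumors and 48.9, 42.1 and 44.5 in normal thymus, at least 2.58-fold lower (limma adjusted p = 0.0132). Both Egr2 probe sets thus separated the groups in the same direction.

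The 2 Egr3 probe sets disagreed. By 1436329_at, Egr3 read 7.74, 5.05 and 6.84 in tumors and 61.5, 53.1 and 49.3 in normal thymus, at least 3.12-fold lower in tumors (fitted change -3.08 ± 0.36, limma adjusted p = 0.00077). By 1421486_at it read 51.7, 7.27 and 8.10 in tumors and 25.6, 13.1 and 8.76 in normal thymus, a change of 0.02 ± 0.87 (limma adjusted p = 1). In 1421486_at the tumor and resistant tumor arrays above the array median were tumor 1 and resistant tumor 1 and 2, all of them arrays without spike-in signal. Which of the probe sets reports the transcript was not tested, so a direction for Egr3 rests on the probe set chosen.

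Fos encodes the inducible partner of Jun in AP-1. Its signals were 83.4, 119 and 511 in tumors, against 41.6, 39.6 and 29.9 in normal thymus. All 3 tumor arrays lay above all 3 normal arrays, but tumor 3 stood far above the other tumor arrays. The change was 2.23 ± 0.67 (95% interval 0.68 to 3.78, limma adjusted p = 0.0548) in the fit over probe sets, and Fos was called there with the replicate number as a block (limma adjusted p = 0.0329). In the fit over the 11671 genes that passed a filter on dim signals, where 23.3% of genes were called higher, Fos passed the test (limma adjusted p = 0.0167). There it was 1.44 without tumor 3 (limma adjusted p = 0.0348) and 2.08 without normal thymus 3 (limma adjusted p = 0.0557, not called), within a range of 0.00318 to 0.086 over the alternatives. Within the arrays without spike-in signal the change was 1.005, and within those with it 2.84.

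Fosb encodes a Fos paralog that also pairs with Jun. It read 16.5, 12.6 and 44.1 in tumors and 12.1, 7.94 and 5.63 in normal thymus, with no overlap between the groups. Tumor 3 was the only array of the 9 above its array median, and Fosb failed the filter. Because tumor 1 and tumor 2 were dim as well, no fold is given. The change, 1.36 ± 0.54, did not pass the test (limma adjusted p = 0.138).

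Jun encodes the partner with which Fos proteins form AP-1, and it also binds DNA as a dimer of itself. Its probe set 1417409_at gave 35.0, 93.1 and 189 in tumors and 43.3, 64.4 and 64.5 in normal thymus. The tumor arrays were widely spread and lay on both sides of the normal ones (0.59 ± 0.67, limma adjusted p = 0.68). Within the arrays without spike-in signal the difference was -0.31 and within those with it 1.04. The second probe set, 1448694_at, was flat at 44.6, 46.7 and 58.6 in tumors and 44.6, 51.0 and 54.2 in normal thymus (-0.00 ± 0.17, limma adjusted p = 1).

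Junb, a Jun relative that often restrains Jun in growth control, read 40.0, 29.7 and 56.4 in tumors and 82.2, 101 and 93.5 in normal thymus. The groups were apart, and Junb fell by 1.18 ± 0.26, or 2.26-fold (limma adjusted p = 0.015). Setting the array medians equal gave -0.99 (limma adjusted p = 0.185), and the call was also lost without normal thymus 2 (-1.11, 0.0646) and without normal thymus 3 (-1.16, 0.0567), both as limma adjusted p. In the fit over genes equal medians likewise ended the call (limma adjusted p = 0.126, where the alternatives ran from 0.00145 to 0.126). Ier2, a nuclear immediate early protein, read 173, 239 and 286 in tumors and 208, 284 and 323 in normal thymus, which overlap (-0.23 ± 0.27, limma adjusted p = 0.683).

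**Figure D2:**
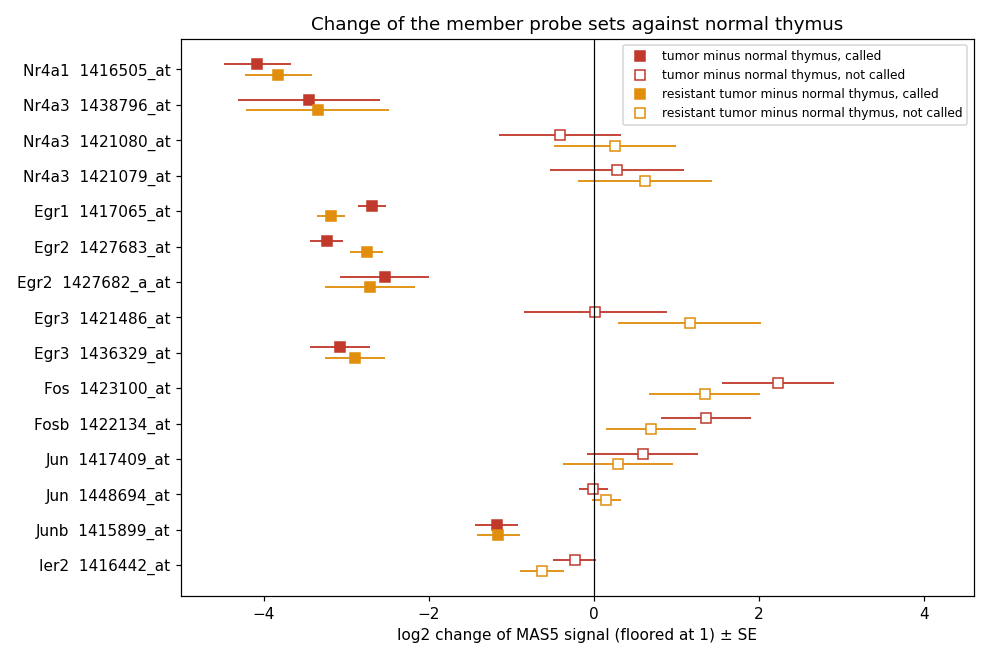
Log2 change of the 15 probe sets, with its standard error, for tumor minus normal thymus (red) and resistant tumor minus normal thymus (orange), 3 arrays per group. Filled squares passed an adjusted p under 0.05 in the limma fit over probe sets. In each colour 7 probe sets are filled, from -4.08 for Nr4a1 in tumors to -1.16 for Junb in resistant tumors.

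In resistant tumors Nr4a1, Egr1, Egr2, Junb and 1 probe set each of Nr4a3 and Egr3 were lower than in normal thymus. Fos, Jun and Ier2 did not pass the test. Both comparisons use the same 3 normal arrays, so their results are not independent and are given side by side only. Of the 15 probe sets 7 were called lower and 0 higher by limma, where 9.27% of all probe sets were lower and 9.26% higher, and 8 passed an unadjusted p under 0.05, as did 29.2% of all probe sets. Resistant and normal arrays did not overlap in 8 of the 15, against 33.1% of all probe sets. The median change of the 15 was -0.63, beside 0.10 over all probe sets.

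Nr4a1 had 33.1, 24.9 and 13.9 in resistant tumors and 306, 312 and 339 in normal thymus. It fell by 3.82 ± 0.41, or 14.1-fold (limma adjusted p = 0.000479). Nr4a3 by 1438796_at had 9.19, 10.4 and 1.51 in resistant tumors and 41.5, 60.6 and 60.3 in normal thymus, at least 2.58-fold lower (limma adjusted p = 0.0294). As in tumors, the Nr4a1 and Nr4a3 values of resistant tumors were near or under the array medians. The Nr4a3 call was lost when any 1 normal array was left out, with limma adjusted p-values of 0.0607 to 0.101.

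The EGR genes were lower too, apart from 1 of the Egr3 probe sets. Egr1 gave 95.5, 97.1 and 124 in resistant tumors and 967, 967 and 910 in normal thymus, a 9.06-fold lower signal (-3.18 ± 0.17, limma adjusted p = 2.586e-05). Egr2 by 1427683_at gave 17.5, 20.2 and 15.6 in resistant tumors and 131, 119 and 109 in normal thymus, 6.74-fold lower (-2.75 ± 0.20, limma adjusted p = 7.979e-05), and by 1427682_a_at the signal was at least 2.18-fold lower (limma adjusted p = 0.00977). Egr3 by 1436329_at gave 9.72, 7.52 and 5.38 in resistant tumors and 61.5, 53.1 and 49.3 in normal thymus, at least 2.63-fold lower (limma adjusted p = 0.00108). By 1421486_at it gave 43.8, 54.0 and 14.0 in resistant tumors and 25.6, 13.1 and 8.76 in normal thymus, which overlap (1.16 ± 0.87, limma adjusted p = 0.459).

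Fos read 71.0, 61.8 and 184 in resistant tumors and 41.6, 39.6 and 29.9 in normal thymus. All resistant arrays were above all normal ones, yet Fos did not pass the test (1.35 ± 0.67, interval -0.20 to 2.90, limma adjusted p = 0.239). With the spike-in set of the arrays as a block, Fos was called in the fit over genes (limma adjusted p = 0.0217, where 32.0% of genes were called higher) and not in the fit over probe sets (limma adjusted p = 0.0875). In the fit over genes the alternatives ran from 0.0217 to 0.293, and leaving out tumor 3, which enters the shared spread, also gave a call (limma adjusted p = 0.0257). Its change was 0.67 within the arrays without spike-in signal and 2.42 within those with it. Leaving out resistant tumor 3 lowered the change to 0.85.

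Fosb read 14.9, 10.4 and 14.7 in resistant tumors, under the array medians there and in normal thymus, so no fold is given. Jun by 1417409_at had 48.5, 43.4 and 158 in resistant tumors and 43.3, 64.4 and 64.5 in normal thymus (0.30 ± 0.67, limma adjusted p = 0.844). Resistant tumor 3 alone lay above the normal arrays. By 1448694_at it had 54.9, 48.8 and 63.0 in resistant tumors, a difference of 0.15 ± 0.17 (limma adjusted p = 0.66).

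Junb read 40.0, 33.8 and 51.4 in resistant tumors and 82.2, 101 and 93.5 in normal thymus, and fell by 1.16 ± 0.26 or 2.23-fold (limma adjusted p = 0.0162). With equal array medians the change was -1.22 and not called (limma adjusted p = 0.0989), and it was not called without resistant tumor 2 (-1.02, limma adjusted p = 0.0616). Ier2 read 139, 157 and 237 in resistant tumors and 208, 284 and 323 in normal thymus, a difference of -0.63 ± 0.27 (limma adjusted p = 0.158). With spike-in set as a block Ier2 was called lower, at -0.43 ± 0.10 (limma adjusted p = 0.016), which made 8 of 15 probe sets lower where 14.9% of all probe sets were.

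Between resistant tumors and tumors no difference in these genes passed the test. By limma 0 of the 15 probe sets were called, where 0.0178% of all probe sets were, and 2 had an unadjusted p under 0.05, against 5.12% of all. It was 0 too with spike-in set as a block, where 0.0422% of all were called. In 2 of the 15, Egr1 and Egr2 1427683_at, the resistant tumor and tumor arrays were fully apart, against 7.40% of all probe sets. Egr1 was 0.49 lower on the log2 scale in resistant tumors (change -0.49 ± 0.17, interval -0.88 to -0.11, limma adjusted p = 0.808), and Egr2 by 1427683_at had a change of 0.48 ± 0.20 (interval 0.03 to 0.94, limma adjusted p = 0.937).

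The intervals of the other genes leave differences of either sign. For Nr4a1 the resistant minus tumor change was 0.26, with an interval of -0.68 to 1.19, and for Fos it was -0.88, with an interval of -2.43 to 0.67. For Junb it was 0.02, with an interval of -0.58 to 0.61, and for Ier2 -0.40, with an interval of -1.01 to 0.21. An adjusted p above the threshold does not show that the groups are alike.

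Ordered by level, Nr4a1 and Egr1 ran from normal thymus at 319 ± 17.5 and 948 ± 32.7 (SD, n = 3) down to the tumor groups. For Nr4a1 resistant tumors (24.0 ± 9.65) and tumors (20.7 ± 11.2) did not differ beyond their spread. For Egr1 tumors (150 ± 34.8) had a higher mean than resistant tumors (105 ± 15.8). Every resistant array lay under every tumor array, although those SD ranges overlapped, and the Egr1 difference did not pass the test (limma adjusted p = 0.808). Fos ran the other way, with tumors at 238 ± 237, resistant tumors at 106 ± 68.3 and normal thymus at 37.0 ± 6.26, and the tumor groups did not differ beyond their spread. The spread of Fos within the tumor groups was far larger than in normal thymus.

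The high Fos arrays were also high in the first Jun probe set. Fos and Jun 1417409_at were both highest in tumor 3 and second highest in resistant tumor 3, with tumor 2 next. All 3 of these are arrays with spike-in signal. Normal thymus 2 and 3, which also carry it, had the lowest Fos values of the 9 arrays.

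Markers of fibroblasts were high in some of the same arrays. The summed signal of 10 fibroblast markers was 2754, 5050 and 6156 in tumors, 4825, 3453 and 7906 in resistant tumors and 1260 to 1339 in normal thymus. In the limma fit over genes 5 of the 10 were higher and 0 lower in tumors, and 6 higher and 1 lower in resistant tumors. Over all genes of that fit 23.3% were higher and 19.1% lower in tumors, and 23.1% higher and 20.2% lower in resistant tumors. No group had any of the 10 below the array median on all of its 3 arrays. This array pattern was not particular to fibroblasts. The summed signal of 10 endothelial markers was also highest in resistant tumor 3 (1009) and tumor 3 (861), with tumor 2 next (807). Within the tumor groups the macrophage marker sum was highest in resistant tumor 3 (2933) and tumor 3 (2555), while normal thymus had 2216 to 2713. The part of any of these cells in the Fos and Jun signals was not tested.

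**Figure D3:**
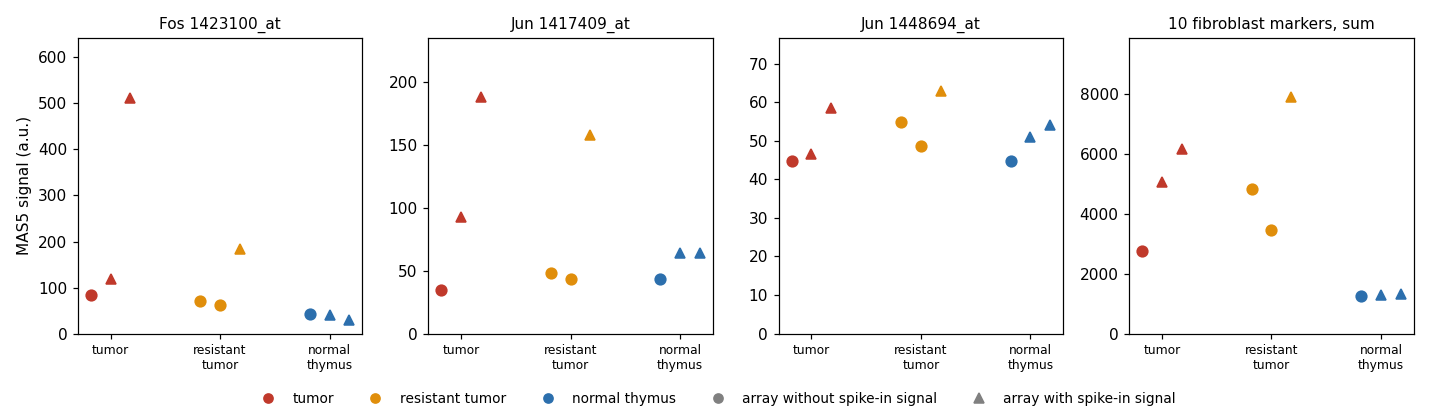
MAS5 signal of Fos, of the 2 Jun probe sets and the summed signal of 10 fibroblast markers in each array of tumor, resistant tumor and normal thymus (linear axes from 0). Circles are arrays without and triangles arrays with spike-in signal. Tumor 3 and resistant tumor 3 hold the highest values of Fos, of Jun 1417409_at and of the marker sum.

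Heat shock genes respond to protein damage. In tumors 4 of 12 were higher and 3 lower, where 23.3% and 19.1% of all genes were, and in resistant tumors 5 were higher and 4 lower, where 23.1% and 20.2% were. Bag3, a cochaperone gene, had 187, 272 and 225 in tumors and 82.4, 43.3 and 54.4 in normal thymus, a rise of 1.96 ± 0.25 (limma adjusted p = 0.000206). Hspa1a, the inducible HSP70, had 41.1, 75.1 and 112 in resistant tumors and 21.2, 24.9 and 35.1 in normal thymus and rose by 1.41 ± 0.49 (limma adjusted p = 0.0417). In tumors it had 29.8, 82.4 and 102, and its part in the Fos signal was not tested. Other heat shock genes were lower. Dnaja1, an HSP70 cochaperone gene, fell by 0.80 ± 0.16 in tumors (limma adjusted p = 0.00287) and fell by 0.60 ± 0.16 in resistant tumors (limma adjusted p = 0.0126). Hspb1, the small heat shock protein HSP27, fell by 1.35 ± 0.25 in resistant tumors (limma adjusted p = 0.00222).

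Markers of other cells moved beside the lower Nr4a1, Egr1 and Egr2 signals. The counts stand beside 19.1% lower and 23.3% higher of all genes in tumors, and 20.2% and 23.1% in resistant tumors. Some markers lay under the median of every tumor and resistant tumor array and passed the filter only through normal thymus, so that only a fall could be measured for them. These were 2 of the thymocyte, 4 of the epithelial, 5 of the dendritic cell, 3 of the B cell and 3 of the neutrophil markers tested. Of 9 thymocyte markers 5 were lower and 1 higher in both tumor groups. Of the 7 that did not pass through normal thymus alone, 3 were lower and 1 higher. The summed signal of the 9 was 13860 to 14591 in tumors, 12076 to 14642 in resistant tumors and 18074 to 20222 in normal thymus. The coreceptor genes Cd8a and Cd8b1 were under the array median on every tumor and resistant tumor array, while the receptor subunit genes Cd3e, Cd3d and Cd3g did not pass the test in either comparison. Ptcra, which encodes a chain of the pre-T cell receptor, was the marker that was higher. Of 10 thymic epithelial markers 9 were lower in tumors and 9 in resistant tumors (5 and 6 of the 6 that did not pass through normal thymus alone), with sums of 111 to 351 in tumors, 119 to 174 in resistant tumors and 7258 to 7785 in normal thymus. Of 8 dendritic cell markers tested 7 were lower in tumors and 5 in resistant tumors (2 and 1 of the 3 that did not pass through normal thymus alone). Sums of the list were 181 to 218, 253 to 315 and 2265 to 2429 in tumors, resistant tumors and normal thymus. Of 6 B cell markers 6 were lower in tumors and 2 in resistant tumors (3 and 1 of the 3 that did not pass through normal thymus alone). Of 8 neutrophil markers 6 and 4 were lower (3 and 2 of the 5 that did not pass through normal thymus alone). Of 10 endothelial markers 5 were higher and 1 lower in each comparison. Of the 6 tested B cell markers 1 was lower in resistant tumors than in tumors, where 0.360% of all genes were called in either direction. Macrophage markers had sums of 1463 to 2555 in tumors, 1563 to 2933 in resistant tumors and 2216 to 2713 in normal thymus, and 0 of 10 were called by limma in either comparison, with 1 at an unadjusted p under 0.05 in each and 3 lower in tumors with spike-in set as a block, where 26.1% of genes were. With that block 2 were higher and 2 lower in resistant tumors, where 32.0% of genes were higher and 26.8% lower. The share of each cell type in the Nr4a1 and Egr signals was not tested.

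T cell receptor induced genes of thymocytes were mostly lower in both tumor groups. This and the following lists are counted in the limma fit over genes, in which 19.1% of genes were lower and 23.3% higher in tumors, and 20.2% lower and 23.1% higher in resistant tumors. Of 12 tested genes 11 fell in tumors and 10 in resistant tumors, and 0 rose. Pdcd1, Ikzf2 and Cd83 passed the filter only through normal thymus, and of the other 9 genes 8 fell in tumors and 7 in resistant tumors. The list's median change was -2.13 in tumors, beside 0.05 over all genes, and -2.06 in resistant tumors, beside 0.06. With genes under the array medians at their bounds these medians were -1.62 and -1.54.

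Cd5, an inhibitory receptor whose level follows T cell receptor signal strength, had 30.7, 13.6 and 16.4 in tumors, 23.0, 47.9 and 34.4 in resistant tumors and 493, 687 and 736 in normal thymus. Its changes were -5.05 ± 0.35 in tumors and -4.23 ± 0.35 in resistant tumors (limma adjusted p = 5.233e-06 and 1.593e-05). Ikzf2, which encodes the factor Helios, was at least 35.3-fold lower in tumors and at least 29.8-fold lower in resistant tumors, and Cd83, an activation marker shared with dendritic cells, at least 25.3-fold and at least 21.4-fold. Pdcd1, the PD-1 gene, was at least 2.87-fold lower in tumors. Cd69, the early activation marker, read 24.0, 21.7 and 36.9 in resistant tumors and 218, 160 and 129 in normal thymus and fell by 2.62 ± 0.39 (limma adjusted p = 0.0006).

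**Figure D4:**
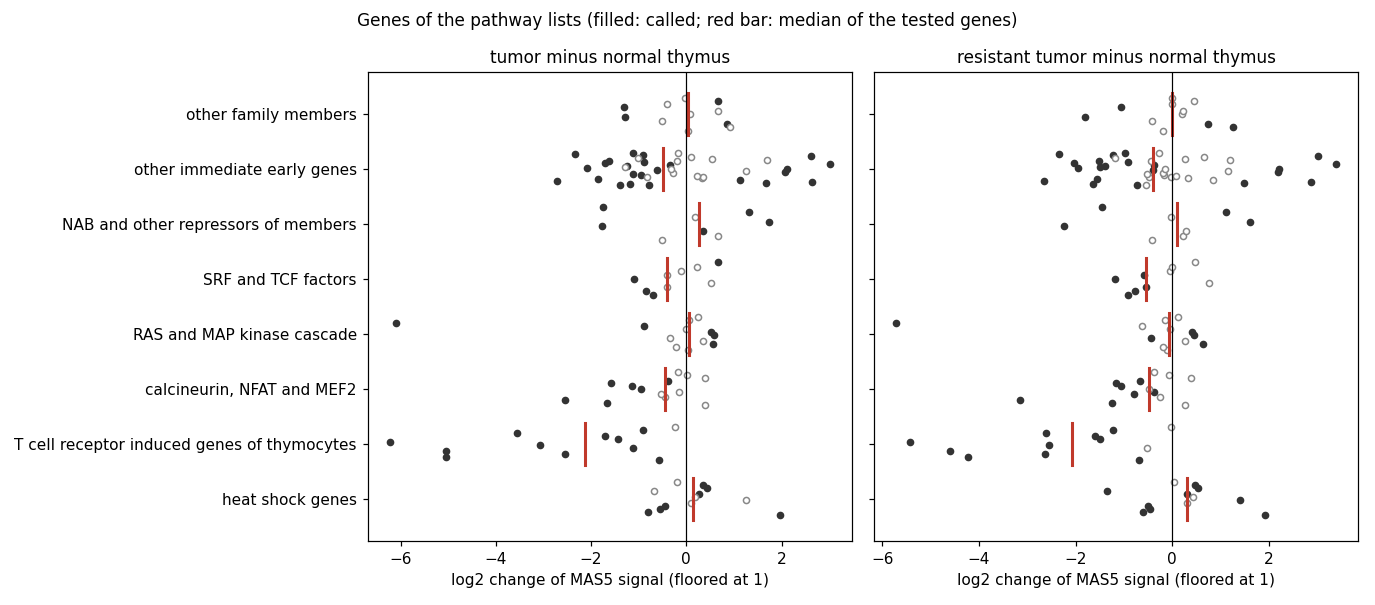
Log2 change of each tested gene of 8 pathway lists in tumor minus normal thymus (left) and resistant tumor minus normal thymus (right), 3 arrays per group. Filled points passed an adjusted p under 0.05 in the limma fit over genes, and red bars are list medians. The T cell receptor induced list has medians of -2.13 and -2.06, and the other lists have medians between -0.55 and 0.31.

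Rasgrp1, the RAS activator that links the T cell receptor to MAP kinases, had 17.0, 21.2 and 22.4 in tumors, 29.6, 28.7 and 21.1 in resistant tumors and 1459, 1297 and 1385 in normal thymus. It fell by 6.10 ± 0.18 in tumors (limma adjusted p = 5.93e-08) and fell by 5.72 ± 0.18 in resistant tumors (limma adjusted p = 7.768e-08). Of 12 genes of the RAS and MAP kinase cascade measured, 3 were higher and 2 lower in each comparison. Mapk14, which encodes the p38 alpha kinase, rose by 0.58 ± 0.10 in tumors and 0.46 ± 0.10 in resistant tumors, and Map2k1, which encodes the kinase MEK1, by 0.57 ± 0.15 and 0.63 ± 0.15.

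Of 13 calcineurin, NFAT and MEF2 genes 6 fell in tumors and 7 in resistant tumors, and 0 rose. Mef2a, whose protein family binds the Nr4a1 promoter, had 153, 117 and 142 in tumors, 147, 73.4 and 69.3 in resistant tumors and 805, 807 and 797 in normal thymus. It fell by 2.55 ± 0.26 in tumors and fell by 3.14 ± 0.26 in resistant tumors. Hdac7, a deacetylase gene whose product represses Nr4a1 in thymocytes, fell by 1.66 ± 0.23 in tumors and fell by 1.24 ± 0.23 in resistant tumors. The catalytic calcineurin subunit gene Ppp3ca fell by 1.59 ± 0.28 in tumors, and Nfatc3, an NFAT factor gene of thymocytes, fell by 1.14 ± 0.13.

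Among 9 SRF, TCF and CREB family genes, which act on the promoters of Fos, Egr1 and Nr4a genes, 1 was higher and 3 lower in tumors, and 0 higher and 5 lower in resistant tumors. Srf rose by 0.68 ± 0.18 in tumors (limma adjusted p = 0.0141). Elk3, a ternary complex factor gene, fell by 1.10 ± 0.22 in tumors and fell by 1.17 ± 0.22 in resistant tumors, and Creb1 fell by 0.70 ± 0.12 in tumors and fell by 0.91 ± 0.12 in resistant tumors.

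Among 8 repressors of these factors and of their upstream signals, 3 were higher and 2 lower in tumors, and 2 were higher and 2 lower in resistant tumors. Nab2, an EGR target that encodes a corepressor of EGR factors, read 36.1, 65.8 and 62.0 in tumors, 24.1, 35.7 and 64.4 in resistant tumors and 174, 184 and 184 in normal thymus. Nab2 fell by 1.78 ± 0.35 in tumors (limma adjusted p = 0.0026) and fell by 2.24 ± 0.35 in resistant tumors (limma adjusted p = 0.000694). Spry2 passed the filter only through normal thymus. The MAP kinase inhibitor genes Spred1 and Spry1 rose, by 1.73 ± 0.16 and 1.32 ± 0.16 in tumors and by 1.61 ± 0.16 and 1.12 ± 0.16 in resistant tumors, while Spry2 was at least 2.05-fold lower in tumors and at least 1.73-fold lower in resistant tumors.

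The remaining members of the NR4A, EGR and AP-1 families were mostly not called. Of 11 tested, 2 were higher and 2 lower in each comparison, 1 of the lower ones, Batf3, having passed the filter only through normal thymus, and Nr4a2, Egr4 and Batf2 were under the array median in every group. Jund, the constitutive Jun family member, had 617, 752 and 584 in tumors, 714, 667 and 936 in resistant tumors and 1973, 1463 and 1408 in normal thymus. It fell by 1.30 ± 0.17 in tumors and fell by 1.06 ± 0.17 in resistant tumors. Atf4, a stress response factor gene, rose by 0.86 ± 0.22 and 0.75 ± 0.22 in tumors and resistant tumors.

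Of 38 other immediate early genes 7 rose and 17 fell in tumors, and 6 rose and 15 fell in resistant tumors, with medians of -0.48 and -0.39. Csrnp1, an AXIN1-induced nuclear protein gene, had 89.9, 80.8 and 67.7 in tumors, 67.3, 88.8 and 90.5 in resistant tumors and 483, 524 and 540 in normal thymus. Its changes were -2.71 ± 0.16 and -2.66 ± 0.16. Socs3, a feedback inhibitor of cytokine signalling, had 1032, 806 and 1263 in tumors, 1467, 1150 and 1462 in resistant tumors and 190, 166 and 145 in normal thymus and rose by 2.61 ± 0.18 and 3.02 ± 0.18. Nfil3, a basic leucine zipper repressor gene, was at least 3.60-fold higher in tumors and at least 4.70-fold higher in resistant tumors, and Ccn2, a matricellular growth factor gene, at least 5.52-fold and at least 6.50-fold. In the comparison of resistant tumors with tumors 0 genes of these 8 lists were called, where 0.360% of all genes were. In the last list 6 of 38 genes had an unadjusted p under 0.05 there, against 7.23% of all genes, and 1 was called higher with spike-in set as a block, where 0.523% of genes were.

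The genes whose log2 signals followed those of a member most closely over the 9 arrays were named without a test. For Nr4a1 they were Dgkeos, Psmb11, Capn3, Ikzf2 and an immunoglobulin kappa variable segment, with Pearson r of 0.995 to 0.998. All of these but Capn3 lay under the array median on every tumor and resistant tumor array. They passed the filter only through normal thymus, so their r rests mainly on the step between normal thymus and the tumor groups. For Egr1 they were Ppp1r16b, Pde4d, Cd27, Fbxl12 and Hivep1, at 0.991 to 0.998. For Fos they were Ccdc126, Tcf25, Cavin3, Selenon and Tchp, at 0.939 to 0.972. All of these correlations run over the same 3 groups of 3 arrays, and within each group only 3 points stand behind them.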

How the data were processed

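Total RNA was biotin-labelled and hybridised to 9 Affymetrix Mouse430_2 arrays, per the labels. The deposited intensity values, 1 per probe set and array, came from the authors' use of MAS5, which the submitters' processing notes name without a version or scaling target. Each array had a trimmed mean of 100.03. The gene table of the platform gave 1 symbol to 34945 of the 45101 probe sets and several to 932, left 9160 unlisted, and 64 were controls. Columns carry the accessions of the samples, which gave each its title and group, and 0 columns went unmapped.

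A floor of 1 was set before the log2 transform. limma 3.58.1 (R 4.3.3, lmFit and eBayes with an intensity trend) was fitted to all 9 arrays with a mean per group, in 2 ways: over 45037 probe sets without a filter, and over 11671 genes. For the gene fit a probe set had to reach the array median on at least 3 of 9 arrays, and each gene was represented by its brightest such probe set by mean log2 signal. Nr4a3 passed that filter only through the normal arrays and Fosb failed it, so member counts are taken from the probe sets. P-values are two-sided and adjusted by Benjamini-Hochberg over all features of a fit, with calls at 0.05. Figures were drawn with matplotlib 3.10.9 (Python 3.11.15).

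Members and gene lists were chosen with earlier results of these data known. The rule for named genes takes all members, up to 4 called genes with the largest change per pathway list and comparison, and the 5 genes most correlated with Nr4a1, Egr1 and Fos, without Rik and Gm symbols. Promoter windows came from the RefSeq table of GRCm38.p6. The tumor 1 control rows, ordered differently from the other arrays, were sorted by name before spike-in sets were read. Same-numbered tumor and normal arrays deviated together (correlations of 0.706, 0.422 and 0.454), and each of these pairs shared its spike-in set. Resistant tumor 2 opposed its partners (-0.406 with normal thymus 2 and -0.368 with tumor 2), and it lacked the spike-in signal that they carry. These correlations therefore cannot tell a pairing from the spike-in set. The main fits used no pairing, and the replicate number entered only as a block in an alternative. On simulated data for tumor against normal thymus, over 11671 genes, the fit found 70% of genes changed by 1 log2 unit and 92% of those changed by 2, and 2.99% of calls were false. The simulation changed only a small share of the genes, used independent normal noise and held no spike-in set effect. Its shares therefore do not give the recovery or the false calls in the real arrays. Alternatives were quantile normalization, equal array medians, an offset of 50, a floor of 16, no filter, a filter at the 75th percentile, no trend, other probe set choices, fitting 2 groups only, the spike-in set or replicate number as a block, each spike-in set alone, and leaving out each array.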

Additional observations from a re-analysis of the deposited data

Results flagged for a closer look

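In 4 cases every tumor or resistant tumor array differed from normal thymus in one direction among the arrays without spike-in signal and in the other among the arrays with it. The difference between the sets was not tested. The arrays without spike-in signal hold 1 tumor, 2 resistant tumor and 1 normal array. For Jun 1417409_at the change of tumor against normal thymus was -0.31 without and 1.04 with spike-in signal. For Egr3 1421486_at it was 1.01 and -0.48. For Nr4a3 1421080_at, which lay under the array median on all 9 arrays, it was 0.073 and -0.65 in tumors, and 0.16 and -0.62 in resistant tumors.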

How the results depend on the processing

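The lower signal of Nr4a1, Egr1 and Egr2 in both tumor groups was called under all 23 alternatives to the gene fit. In that fit 6 of 9 members were called in tumors (5 lower, Fos higher) and 5 in resistant tumors, Nr4a3 among them in each although it passed the filter only through normal thymus, where 42.4% and 43.3% of all genes were called. Leaving out each array gave 5 to 6 and 5 to 6. The arrays without spike-in signal hold 1 tumor, 2 resistant tumor and 1 normal array, so a lone array is assumed to vary like the 2 resistant ones, and the 3 members called in tumors there are no replicated test. A filter at the 75th percentile, which tests fewer members, left 3 in resistant tumors. Over probe sets, leaving out each array gave 4 to 8 of 15 in tumors and 5 to 7 in resistant tumors. The replicate block gave 6 and 7 members and 8 and 8 probe sets, and 0 between resistant tumors and tumors, where every alternative run gave 0. With that block Fos (1.35, limma adjusted p = 0.0359, alternatives 0.0217 to 0.293) and Ier2 (-0.63, limma adjusted p = 0.00643 over probe sets) were called in resistant tumors, and Fos over probe sets in tumors (limma adjusted p = 0.0329). It changed no other call of these genes. Egr3 reversed with the probe set: its mean over probe sets fell by 1.53 in tumors (limma adjusted p = 0.0474), and probe set 1436329_at, chosen after seeing the data, fell by 3.08 in tumors and fell by 2.89 in resistant tumors. Of 612 single-member alternatives 562 kept direction and call, 28 uncalled values changed sign, 12 gained and 7 lost a call, and 3, all of Egr3, reversed with a call. Equal array medians moved the median of all genes to 0.24, against 0.05, in tumors, and lowered the calls over all genes to 2256 from 4943 in tumors and to 2015 from 5049 in resistant tumors, where 43.1% were higher, against 53.4%. Within the arrays without spike-in signal, with those lone arrays, 2117 and 3069 genes passed. Over all probe sets equal medians gave 4600 and 4397 calls, against 8336 and 8345, and spike-in set as a block gave 13697 and 13277. Between resistant tumors and tumors the 42 called genes became 18 with equal medians (22.2% higher, against 35.7%), 22 without a filter, 23 with the stricter one, 27 with the mean over probe sets, 8 in a fit of 2 groups, 143 with spike-in set as a block, 92 with the replicate block, 1 within the arrays without and 553 within those with spike-in signal (a lone tumor and a lone resistant array), and 8 to 70 with an array left out, and the 8 called probe sets 34 with quantile normalization, 24 with the offset, 19 with the spike-in set and 4 with the replicate block. The cause was not tested. Signals near or under the array medians limit the size of the changes of Nr4a1, Nr4a3, Egr2, Egr3 and Fosb.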
